A study of Mus musculus with 45 samples.

Results

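Retinoic acid signalling genes were followed through the conversion of mouse neural progenitors into pluripotent cells. The set consisted of 7 genes chosen by name: the cytoplasmic retinoid-binding proteins Rbp7, Crabp1 and Crabp2, the retinol receptor Stra6, and the nuclear receptors Rara, Rarb and Rarg. Gene values were analysed for 6 of the 7, among 23575 genes in the table, together with 46 of their transcripts among 276608. Stra6, the membrane receptor through which cells take up retinol from its plasma carrier, was not analysed here.

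RNA was read on Oxford Nanopore long-read flow cells in 45 libraries. Of these, 22 were R9 libraries, made as direct cDNA from poly(A) RNA, and 23 were R10 libraries, made as PCR-amplified cDNA from total RNA. All progenitors derived from Oct4-GFP embryonic stem cells (O4G), an R1 line with a GFP reporter of Oct4. The wild type progenitors carried no factor cassette. The other progenitors carried OKMS-Luciferase-AS (Oct4, Klf4, Myc and Sox2) or OKS-Luciferase-AS (the same without Myc), inserted stably and switched on by doxycycline. Uninduced progenitors were kept in progenitor medium, a serum-free N2B27 medium with EGF and FGF-2. Reprogramming cells, and wild type controls collected at day 2, were moved to FBS-LIF, a fetal bovine serum medium with leukemia inhibitory factor, with doxycycline in all of them. R9 libraries covered days 2, 4, 6, 10, 14 and 20 for both cassettes. R10 libraries covered days 2, 4, 6, 10 and 18 for OKMS and days 2, 6 and 18 for OKS. Some late cultures were in 2i-LIF, in which LIF and inhibitors of GSK3 and MEK are added to N2B27, from day 6 in the R9 series (sampled at days 14 and 20 for OKMS, day 20 for OKS). For the 2 R10 2i-LIF libraries of day 18 the day of the change is not given in the sources used here. Stem cells in 2i-LIF were O4G, R1 and R1-Clone3, a clone of R1, with 7 R10 and 2 R9 libraries. Nothing in the labels says that replicates came from separate cultures, so p-values measure the spread between these libraries, which may be technical.

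Retinol enters the cell, is oxidised to retinal and then to retinoic acid, and the acid binds heterodimers of a retinoic acid receptor (RAR) with a retinoid X receptor on DNA. CRABP proteins carry retinoic acid in the cytoplasm: CRABP2 delivers it to RARs in the nucleus, CRABP1 is tied to its breakdown and to cytoplasmic signalling, and RBP7 carries retinol. Rarb is a classical target gene of the receptors themselves. In embryonic stem cells the pathway is known for driving exit from pluripotency and neural differentiation.

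The known retinoic acid response element of Rarb is shown because this gene had the largest endpoint difference of the 3 receptor genes, described below. Receptor dimers bind a direct repeat of 2 half-sites with 5 bases between them. Promoter windows of RefSeq (GRCm38.p6), reaching 250 bases upstream of each start, were searched on both strands for that repeat, each half-site being AGGTCA, or with its first base changed GGGTCA, or with its middle changed AGTTCA, or with both changed GGTTCA. A match may join different half-sites, and the half-sites in it do not overlap. Of 32851 windows, 32 (0.0974%) held one. Among the 6 members with a window, which include Stra6 but not Crabp2, Rarb alone did, at bases -53 to -37 from its start. Of the breakdown enzyme gene Cyp26a1 the match was on the opposite strand, at -32 to -16. In the 2 sites below, both 5′ to 3′ on the minus strand, capitals mark the match with its spacer.
Rarb chr14:16575506-16575535: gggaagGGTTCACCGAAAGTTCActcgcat
Cyp26a1 chr19:37697770-37697799: acaaattAGTTCACCCAAAGTTCAtcttta
Of the authors' 10 Rarb transcripts, 9 began within 100 bases of the RefSeq start, between 93 bases downstream and 78 bases upstream. A repeat with spacing 2 occurred in 0.268% of windows and with spacing 1 in 0.222%, and in no window of a member. A match describes letters in a window and does not show that a receptor was bound.

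Depth ran from 447990 to 1390424 gene-assigned reads in R9 libraries and from 566599 to 4236442 in R10 libraries. Every CPM value was a whole number of reads, so the reads behind each value are known. The 6 markers of pluripotent cells summed to 11000 to 13550 CPM in R10 stem cells against 14.9 to 28.0 in R10 progenitors, and 6 neural progenitor markers summed to 4907 to 6415 CPM in the progenitors, with Sox1 at 0 in all 4. Mitochondrial reads were 1.56 to 2.35% of reads in the 10 R10 libraries whose labels give a library name, 0.124 to 0.319% in 5 wild type or R1 libraries without one, 0.73 to 1.64% in 8 OKMS and OKS libraries without one, and 0.31 to 0.99% in R9. By library name, R10 stem cells and progenitors fell in different sets apart from 1 R1 library, which is therefore also given alone. The labels do not divide the R10 libraries without a name, which were split here by cassette. Among progenitors only the wild type ones fell in the range of mitochondrial reads given with that R1 library. Its difference from all 4 does not hold that share constant. In bulk RNA, fewer cells that express a gene and less RNA per cell cannot be told apart.

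**Figure D1:**
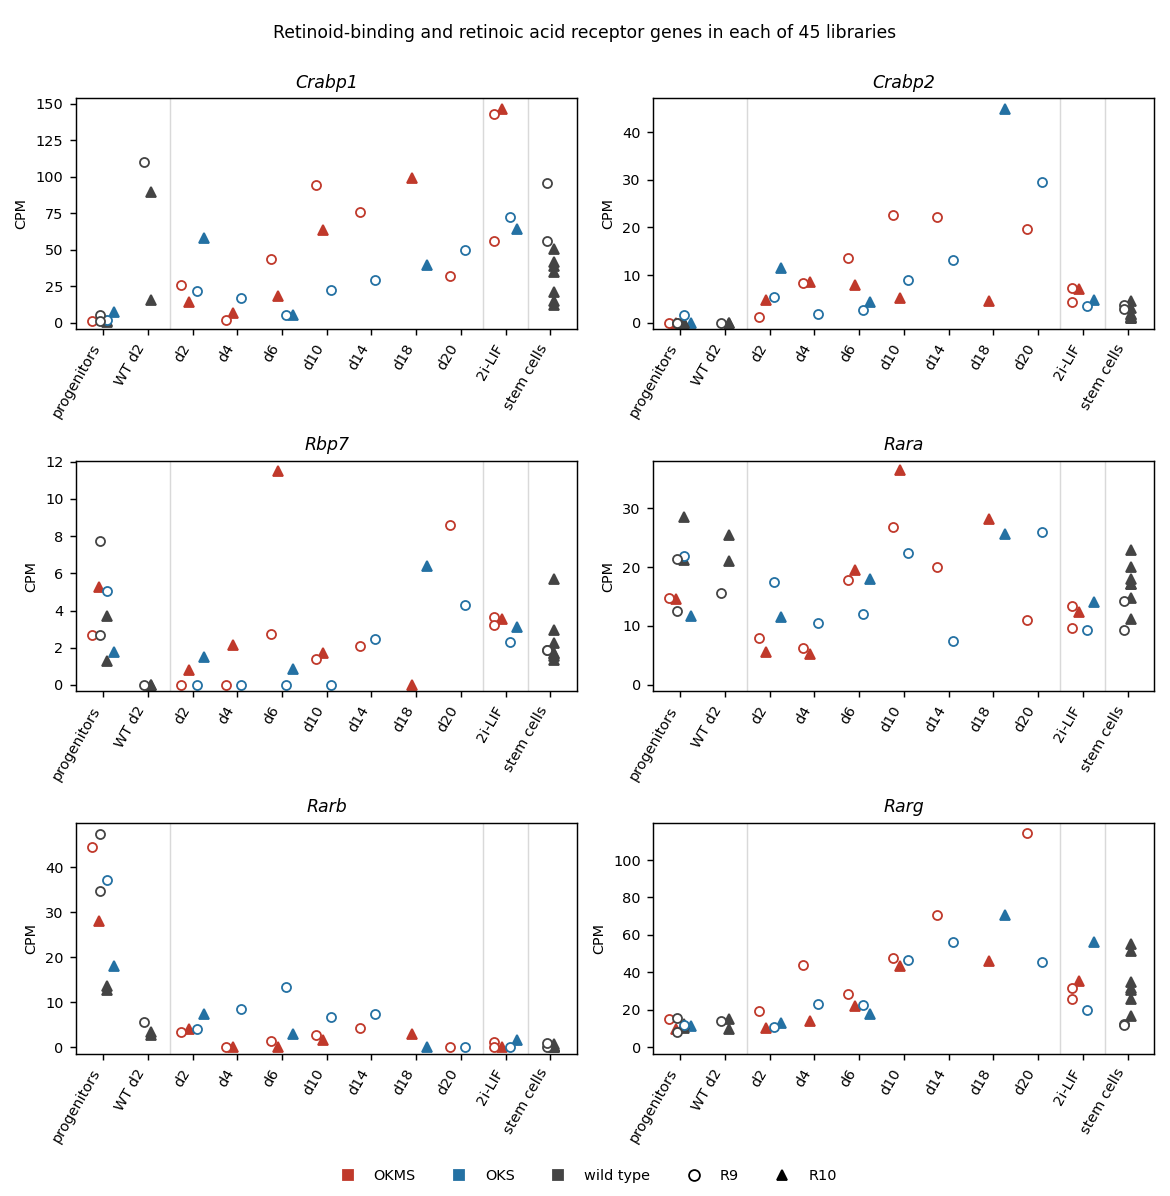
CPM of each of the 6 genes in every library (vertical axis, linear and scaled to each gene), by culture state on the horizontal axis. Colour marks wild type, OKMS and OKS, and stem cells share the wild type colour. Open circles are R9 and filled triangles R10. Rarb lies at or below 1 CPM in all stem cell libraries and at 12.7 CPM or more in all progenitors, and Crabp2 is at 0 in 7 of the 8 progenitor libraries.

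The first comparison asked how the endpoints of reprogramming differ. Stem cells had more Crabp1, Crabp2 and Rarg and less Rarb than progenitors in R10 libraries, while Rara and Rbp7 did not pass the test. Thus 4 of the 6 genes were called, 3 higher and 1 lower (adjusted p below 0.05 and a difference of at least 1 on the log2 scale), where 45.8% of the 15415 genes tested were called. Genes were tested when they reached 1 CPM in 4 libraries, which Crabp1 and Crabp2 did only with the stem cells, where they are high, and Rarb only with the progenitors. Their calls therefore add nothing to the values given below, and no R10 p is given for them. The median difference was 0.71 over the 6 and 0.01 over all genes tested, and in R9 the 2 medians were -0.27 and -0.07. The R10 median of the 6 includes these filtered genes, so it is not read as a shift of the set. Differences are on the log2(CPM + 1) scale, which understates the change of low genes, and adjusted p-values are from limma.

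Crabp1 had 0.635 and 1.15 CPM in the 2 R10 wild type progenitor libraries, 2.20 in OKMS and 7.59 in OKS progenitors. The 7 R10 stem cell libraries ranged from 12.1 to 50.4 CPM with a median of 34.5. All stem cell libraries lay above all progenitors. The means were 30.6 ± 14.6 (SD, n = 7) and 2.89 ± 3.20 CPM (SD, n = 4), a difference of 3.17 ± 0.45 (SE). With the R1 library outside the named set as the only stem cell library, the difference was 3.77, given here and below as the value of 1 library against the 4 progenitors, with no test. In R9, the progenitors had 5.35 and 0.968 (wild type), 1.35 (OKMS) and 1.69 CPM (OKS), against 95.6 in O4G and 55.8 in R1 stem cells. These groups did not overlap either, and the difference was 4.64 ± 0.54 (SE; adjusted p = 8.49e-04). The 4 R9 progenitor values rest on 1 to 4 reads each. The stem cell lines were not in the same order in both chemistries: O4G had the lower Crabp1 among R10 lines and the higher in R9.

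Crabp2, the carrier that hands retinoic acid to the receptors, had no read in any of the 4 R10 progenitor libraries. The 7 R10 stem cell libraries ranged from 0.942 to 4.48 CPM with a median of 1.64, on 4 to 12 reads each. Set against 3 reads over the 4 progenitor libraries pooled, the stem cell mean of 2.02 ± 1.31 CPM (SD, n = 7) was at least 7.15-fold higher. R9 progenitors held a single Crabp2 read, in the OKS library (1.69 CPM), and the R9 stem cells had 3.79 and 2.79 CPM. The groups were apart in both chemistries. The R9 difference of 1.73 is likewise given with no p, since the gene passed the filter there (1 CPM in 2 libraries) only with the stem cells.

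Rbp7, a retinol carrier of the same family, had single-digit CPM at both endpoints. R10 progenitors had 1.27 and 3.73 CPM in wild type, 5.27 in OKMS and 1.75 in OKS, and R10 stem cells ranged from 1.34 to 5.71 with a median of 1.74. These ranges overlapped (difference -0.19 ± 0.33 SE; adjusted p = 0.627). In R9, progenitors had 2.67 and 7.74 (wild type), 2.69 (OKMS) and 5.06 CPM (OKS) against 1.89 and 1.86 in stem cells. There the groups were apart in CPM, but the stem cell libraries held 2 reads each, as did wild type progenitors replicate 1 and OKMS progenitors. The difference of -0.85 did not pass the test (adjusted p = 0.174).

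Rarb, the receptor gene that retinoic acid itself induces, was read in all progenitor libraries and was near or at 0 in stem cells. R10 progenitors had 12.7 and 13.5 CPM in wild type, 28.1 in OKMS and 18.1 in OKS. Of the 7 R10 stem cell libraries 4 had no read, and the other 3 held 4 reads in all, with at most 0.747 CPM. The difference was -3.97 ± 0.26 (SE), and -3.38 with the R1 library outside the named set alone. R9 progenitors had 34.8 and 47.4 (wild type), 44.4 (OKMS) and 37.1 CPM (OKS), against 0 in O4G and 0.931, a single read, in R1 stem cells. No stem cell library in either chemistry reached a progenitor library, and the R9 difference was -4.90 ± 0.34 (SE). In R9 too the gene passed the filter only with the progenitors.

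Rarg, the receptor that is prominent in early embryonic cells, had a different pattern in the 2 chemistries. R10 progenitors had 12.4 and 10.3 CPM (wild type), 9.67 (OKMS) and 11.1 (OKS), and R10 stem cells ranged from 16.8 to 55.0 with a median of 31.8. The groups were apart, with a difference of 1.52 ± 0.26 (SE; adjusted p = 8.68e-05), and of 2.14 with the R1 library outside the named set alone. R9 progenitors had 8.02 and 15.5 (wild type), 14.8 (OKMS) and 11.8 CPM (OKS), against 12.3 in O4G and 12.1 in R1. These values overlapped, and the R9 difference was 0.00 ± 0.32 (SE; adjusted p = 0.994). A test of the difference between the chemistries gave -1.52 ± 0.44 (SE) for Rarg, as R9 minus R10 (limma adjusted p = 0.0556). Its unadjusted value was 0.00247. After centring each library on its median the adjusted p was 0.0492. None of the 6 members was called in that test, against 3.4% of genes (2.04% higher and 1.36% lower), and by unadjusted p below 0.05 Rarg was the 1 member, where 3063 of 14197 genes (21.6%) had such a value. The same contrast was 1.46 for Crabp1, 0.24 for Crabp2, -0.66 for Rbp7, -0.94 for Rarb and -0.46 for Rara (adjusted p from 0.242 to 0.839). Chemistry, RNA selection and amplification change together between the sets and cannot be told apart.

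Rara, the most widely expressed of the receptors, was not called at the endpoints in either chemistry. R10 progenitors had 28.6 and 21.2 CPM (wild type), 14.5 (OKMS) and 11.7 (OKS), and R10 stem cells ranged from 11.2 to 22.9 with a median of 17.2. R9 progenitors had 21.4, 12.6, 14.8 and 21.9 CPM in the same order, against 14.2 in O4G and 9.31 in R1. The ranges overlapped in both chemistries, with differences of -0.08 (adjusted p = 0.783) in R10 and -0.54 (adjusted p = 0.229) in R9. In the R9 endpoint comparison 3 of the 6 members were called, against 36.0% of 15746 genes. As 2 of these, Crabp2 and Rarb, passed the filter only with the group where they are high, the count is not read as support. Both endpoint comparisons use all 4 progenitor libraries of a chemistry, of which the uninduced OKMS and OKS libraries recur as day 0 below.

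**Figure D2:**
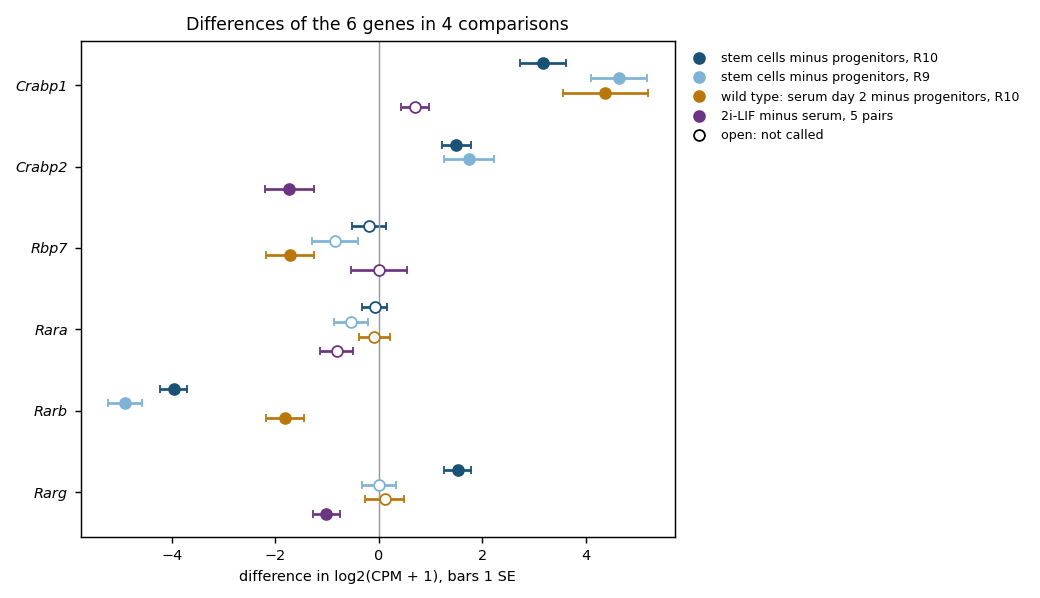
Differences of log2(CPM + 1) with 1 standard error for the 6 genes in 4 comparisons, open symbols where the difference was not called. Rarb lies at -3.97 between R10 stem cells and progenitors and at -1.81 between wild type cells in serum medium and in progenitor medium, while Crabp1 lies at 3.17 and 4.37.

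Culture without factors was measured in wild type cells: 2 R10 libraries of day 2 in serum medium with doxycycline against 2 in progenitor medium. Serum medium, doxycycline and time in culture changed together and cannot be told apart. Crabp1 rose while Rarb and Rbp7 fell, so 3 of the 5 members tested were called, against 26.8% of 14688 genes. Crabp1 reached 1 CPM in the 2 libraries needed through the serum medium, and Rbp7 through the progenitors alone, so the count is not read as support. Crabp1 went from 0.635 and 1.15 CPM in progenitor medium to 15.7 and 89.6 CPM. Rarb went from 12.7 and 13.5 to 2.74 and 3.29 CPM. Rbp7 went from 1.27 and 3.73 CPM to no read in either serum library. For all 3 genes the pairs of libraries were apart, but the 3 were picked as called, so this adds nothing to the values. The differences were 4.37 ± 0.82 for Crabp1 (SE) and -1.81 ± 0.37 for Rarb (SE; adjusted p = 0.02).

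The single R9 wild type library of day 2 had the same order relative to its progenitors: Crabp1 was at 110.4 CPM, Rarb at 5.66 and Rbp7 at 0. The R9 differences of 4.98, -2.64 and -2.50 are those of 1 library, with no test. Without any 1 of the 4 R10 libraries none of the 3 was called, but in 3 of those 4 fits no gene of the table was called, so this says nothing of these members in particular. The differences then ran from 3.15 to 5.6 for Crabp1, -1.91 to -1.71 for Rarb and -2.24 to -1.18 for Rbp7. Rara (25.4 and 21.1 CPM in serum medium against 28.6 and 21.2) and Rarg (15.3 and 9.88 against 12.4 and 10.3) overlapped between the media. Crabp2 had no read in any wild type library of either medium. The astrocyte markers Gfap, Aqp4 and S100b summed to 36.8 and 91.5 CPM in wild type progenitors and to 1186 and 3053 CPM in serum medium, where 2 of the 3 were higher. Of 5 neural progenitor markers tested 3 were lower (median difference -1.10). The part of either list in these changes was not tested.

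Adding the factors was asked by setting the OKMS and OKS libraries of day 2 against wild type libraries of the same day and medium, which also served in the medium comparison. None of the 5 members tested was called by limma, against 0.74% of 15402 genes (0.714% higher and 0.026% lower). Crabp2 and Rara had an unadjusted p below 0.05 (0.000576 and 0.0283), as had 2344 of the 15402 genes (15.2%). Crabp2, at 0 in both R10 wild type libraries, had 4.74 CPM in OKMS and 11.6 in OKS, on 6 and 31 reads. Set against 3 reads over both wild type libraries, the mean was at least 15.2-fold higher. These R10 wild type libraries are among those with 0.124 to 0.319% mitochondrial reads and the factor libraries among those with 0.73 to 1.64%. The labels do not place them in different sets, but factors and whatever separates these shares cannot be told apart here. Crabp2 passed the filter through the factor libraries alone, so its test, which edgeR, DESeq2 and median centring called, adds nothing to these values. Rbp7, too low to be tested, had 0.790 CPM (OKMS) and 1.49 (OKS) against no read in wild type. For Crabp2 the R9 libraries of day 2 had 1.13 CPM in OKMS and 5.35 in OKS, against 0 in wild type, on 1 and 4 reads.

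Rarb at day 2 with factors, at 3.95 CPM (OKMS) and 7.46 (OKS), was not far from the wild type cells in the same medium (2.74 and 3.29). The difference of 0.69 ± 0.62 (SE) did not pass the test (adjusted p = 0.627). Crabp1, at 14.2 and 58.2 CPM with factors, overlapped the wild type values (difference -0.37; adjusted p = 0.866). In R9 it did not overlap, with 26.0 CPM (OKMS) and 21.4 (OKS) against 110.4 in the single wild type library. Rara had 5.53 and 11.6 CPM with factors against 25.4 and 21.1, which were apart but did not pass the test (adjusted p = 0.267). In R9 the wild type value of Rara, 15.6 CPM, lay between those of OKMS (7.91) and OKS (17.4). Rarg differed by -0.08 (adjusted p = 0.960). The day 2 levels of Crabp1 and Rarb thus differed from those of progenitors in wild type cells too.

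The R9 series gave 2 libraries, OKMS and OKS, for each of 6 days in serum medium. They were compared by a moderated F test with day 0, the 2 uninduced R9 OKMS and OKS progenitor libraries. Rarb was called with its largest difference below day 0 and Rarg with its largest above, so 2 of the 6 members were called, against 10.7% of 19357 genes. Rarb fell by 3.15 at day 2 and fell by 5.38 at day 20 (SE 0.93). The F test over the 6 days together had adjusted p = 0.0435. OKMS cells had 3.39, 0, 1.36, 2.81, 4.22 and 0 CPM at days 2, 4, 6, 10, 14 and 20. OKS cells had 4.01, 8.58, 13.4, 6.69, 7.45 and 0 CPM. Every value lay below all 4 R9 progenitor libraries, whose lowest was 34.8 CPM, and both cassettes ended at 0. The call ended without day 2 (adjusted p = 0.0532), day 14 (0.0558) or day 20 (0.211), and among the serum days alone, against day 2, Rarb did not pass the test (0.304).

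Rarg was called in the opposite direction. OKMS cells had 19.2, 43.8, 28.7, 47.8, 70.7 and 114.5 CPM at days 2, 4, 6, 10, 14 and 20, and OKS cells had 10.7, 22.9, 22.8, 46.9, 56.2 and 45.3. From day 4 on all were above the range of all 4 R9 progenitor libraries, 8.02 to 15.5 CPM. The difference from day 0 was 0.11 at day 2, 1.20 at day 4 and 2.36 at day 20 (SE 0.38). The F test over all days together had adjusted p = 0.00618. R9 stem cells, at 12.1 and 12.3 CPM, lay below the serum cells of day 4 and later. In R10 the serum cells had 10.3 to 22.1 CPM through day 6, 43.3 at day 10 (OKMS), and 46.0 (OKMS) and 70.4 (OKS) at day 18. The R10 libraries alone called neither Rarg (adjusted p = 0.0769) nor Rarb (0.151).

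Both CRABP genes had large differences in R9 that did not pass the test. Crabp1 was at 26.0, 2.09, 43.7, 94.2, 76.0 and 32.0 CPM in OKMS and at 21.4, 17.2, 5.36, 22.3, 28.9 and 49.6 in OKS over the 6 days. It was low at day 4 in OKMS and at day 6 in OKS, on 1 library each. In R10 the values were likewise lowest at day 4 in OKMS (6.38) and at day 6 in OKS (5.55 CPM). The largest R9 difference was 4.26 at day 14, and the F test over all days together had adjusted p = 0.0575. Without day 4 (0.0227) or day 6 (0.0279) Crabp1 was called, and with edgeR and DESeq2 as well (2.86e-11 and 0.0198).

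Crabp2 was at 1.13, 8.35, 13.7, 22.5, 22.2 and 19.7 CPM in OKMS and at 5.35, 1.91, 2.68, 8.92, 13.2 and 29.5 in OKS. Values were under 9 CPM in both cassettes through day 4 and above 13 CPM in both from day 14. The day 20 difference was 3.94, and the F test over all days together had adjusted p = 0.0803. The gene reached the filter only with the serum libraries, so its calls by edgeR and DESeq2 add nothing to these values. In R10 the late OKMS values were not higher than the early ones: OKMS had 4.74, 8.51, 7.95, 5.09 and 4.45 CPM at days 2, 4, 6, 10 and 18, and OKS had 11.6, 4.27 and 44.8 at days 2, 6 and 18. In R9, Rbp7 had no read at days 2 and 4 in either cassette, had 2.73 CPM in OKMS at day 6, and had 8.62 (OKMS) and 4.31 (OKS) at day 20. Its F test did not pass the threshold (adjusted p = 0.0803). In R10 it was read from day 2, with 0.790, 2.13, 11.5, 1.70 and 0 CPM in OKMS at days 2, 4, 6, 10 and 18 and 1.49, 0.853 and 6.40 in OKS at days 2, 6 and 18. The highest R10 value was thus at day 6 in OKMS, on 13 reads. R10 day 18 libraries are in the set with 1.56 to 2.35% mitochondrial reads, and earlier factor days in that with 0.73 to 1.64%. Day 18 and library set therefore cannot be told apart in the R10 course. In R9, Rara kept between 6.26 and 26.7 CPM over all serum days (adjusted p = 0.570). Its R10 serum values with factors ran from 5.32 (OKMS day 4) to 36.5 CPM (OKMS day 10). In the R9 fit 5 of 6 pluripotency markers were higher and 5 of 6 neural progenitor markers lower, and their part in these changes was not tested.

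OKMS was compared with OKS over the 6 R9 serum days as pairs of the same day. None of the 6 members was called by limma, against 18% of 14277 genes, and edgeR and DESeq2 also called 0. Rarb and Rarg had an unadjusted p below 0.05, as had 5763 of the 14277 genes (40.4%). Rarg was higher in OKMS on 6 of 6 days, with a mean difference of 0.62 ± 0.22 (SE; adjusted p = 0.0565). Rarb was lower in OKMS on the 5 days on which it was read, with -1.29 ± 0.51 (SE; adjusted p = 0.0743), and was called without day 20 (-1.55; adjusted p = 0.0404). In R10, Rarg was lower in OKMS on 2 of the 3 days shared. Rarb in R10 was lower in OKMS at day 2 (3.95 against 7.46 CPM) and day 6 (0 against 2.99) but higher at day 18 (2.97 against 0). The carriers Crabp1 (0.55), Crabp2 (0.58) and Rbp7 (0.64) and the receptor gene Rara (-0.13) had adjusted p-values of 0.47, 0.38, 0.305 and 0.823. Crabp1 changed order between days, from 2.56 lower in OKMS at day 4 to 2.81 higher at day 6. Of the markers tested, 3 of 6 for pluripotent and 4 of 4 for epithelial cells were higher in OKMS, and 3 of 5 for neural progenitors and 3 of 3 for astrocytes were lower. Their part in these differences was not tested.

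Late cells that had been moved to 2i-LIF were compared with cells of the same cassette and day kept in serum, as 5 pairs. Crabp2 and Rarg were lower in 2i-LIF, so 2 of the 5 members tested were called, against 12.3% of 14935 genes. Crabp2 had 7.33 CPM in 2i-LIF and 22.2 in serum for R9 OKMS day 14, 4.30 and 19.7 for R9 OKMS day 20, and 3.49 and 29.5 for R9 OKS day 20. In R10 at day 18 it had 7.05 and 4.45 for OKMS, and 4.69 and 44.8 for OKS. The 2i-LIF libraries kept to 3.49 to 7.33 CPM, on 3 to 6 reads each. Only the R10 OKMS pair, with 4 reads against 3, had the opposite order. The difference was -1.73 ± 0.47 (SE; adjusted p = 0.0185).

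Rarg was lower in 2i-LIF in 5 of 5 pairs. The R9 pairs were 31.8 against 70.7 CPM, 25.8 against 114.5 and 19.8 against 45.3. The R10 pairs were 35.3 against 46.0 and 56.3 against 70.4. The difference was -1.02 ± 0.26 (SE; adjusted p = 0.0123). The R9 pairs alone gave -1.46 (adjusted p = 0.0075) and the R10 pairs alone -0.35 (0.738). Calls ended for Crabp2 without the R9 OKMS day 14, R9 OKS day 20 or R10 OKS day 18 pair (adjusted p = 0.0636, 0.117 and 0.108), and for Rarg without any R9 pair (0.0529 to 0.0597).

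Crabp1 was higher in 2i-LIF in 4 of the 5 pairs, with 143 against 32.0 CPM in R9 OKMS day 20 and 56.2 against 76.0 in the pair of the opposite order, R9 OKMS day 14. The difference of 0.69 did not pass the test (adjusted p = 0.0984). Rara was lower in 5 of 5 pairs (difference -0.81; adjusted p = 0.104), and Rbp7 differed by 0.01 (0.993). Rarb, at most 4.22 CPM in these 10 libraries, was not tested. Epithelial markers (Cdh1, Epcam, Krt8, Krt18) summed to 122 to 254 CPM in 2i-LIF and 437 to 1063 in the paired serum libraries, and 3 of 4 were lower in 2i-LIF. Pluripotency markers were higher in 2i-LIF for 4 of 6 (median difference 1.17). The part of either list in these differences was not tested.

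The last comparison set the R10 day 18 cells against the 6 R10 stem cell libraries that carry a number in the labels, which both comparisons share. In 2i-LIF, Crabp1 had 146 CPM (OKMS) and 64.1 (OKS), above the stem cell range of 12.1 to 50.4. Crabp2 had 7.05 and 4.69 CPM, on only 4 and 3 reads. This was above the stem cell range of 0.942 to 3.10, which rests on 4 to 8 reads each in deeper libraries. Both were called, 2 of the 5 members tested against 12.2% of 15571 genes, with differences of 1.89 ± 0.47 (SE; adjusted p = 0.0177) and 1.42 ± 0.37 (SE; adjusted p = 0.0217). The Crabp2 call ended with edgeR (adjusted p = 0.135), with DESeq2 (0.143) and against all 7 R10 stem cell libraries (0.0741). Without the OKMS library, which leaves 1 library assumed to vary like the stem cells, neither gene was called (1.30, adjusted p = 0.237; 1.17, adjusted p = 0.0932). Against the 2 libraries of O4G, the line the progenitors came from, the differences were 2.77 (0.0682) and 1.54 (0.147), in a fit that called 57 of 14462 genes. Rarg (0.53; adjusted p = 0.288), Rbp7 (0.42; 0.522) and Rara (-0.33; 0.409) did not pass the test. In R9, Crabp1 in 2i-LIF at day 20 (143 and 72.2 CPM) overlapped stem cells (95.6 and 55.8), and so did Crabp2 (4.30 and 3.49 against 3.79 and 2.79).

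In serum at day 18, Crabp2 had 4.45 CPM in OKMS and 44.8 in OKS. It was called as higher than in the 6 stem cell libraries, 1 of the 5 members against 24.0% of 15964 genes, with a difference of 2.65 ± 0.64 (SE; adjusted p = 0.00991). Without the OKS library the difference was 1.11 (adjusted p = 0.0682). Rarg (46.0 and 70.4 CPM against 16.8 to 55.0), Crabp1 (99.4 and 39.7 against 12.1 to 50.4) and Rara (28.2 and 25.6 against 11.2 to 22.9) had differences of 0.87, 1.28 and 0.65 that did not pass the test (adjusted p = 0.0789, 0.0793 and 0.0827). Rara alone of these 3 was apart from the stem cells. Crabp1 was called with DESeq2 (adjusted p = 0.0468) and, by limma, without the R1 clone 3 library n2 (0.0465), and Rarg without the R1 library n1 (0.027). Rbp7, with no read in OKMS and 6.40 CPM in OKS, differed by -0.25 (adjusted p = 0.806). Epithelial markers summed to 635 and 889 CPM in the serum cells against 258 to 308 in these stem cells. Neural progenitor markers were higher in the serum cells for 4 of 5 (median difference 1.92) and pluripotency markers lower for 4 of 6 (-1.71). The part of these lists was not tested. Rarb was at 0 in 2 of the 4 day 18 libraries, 2.97 CPM in OKMS serum and 1.56 in OKS 2i-LIF, and was too low to be tested.

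The authors' transcript table showed that Rbp7 reads came from different starts in different states. The annotated gene lies on chromosome 4, 149449687 to 149454978, minus strand (mm10). The deposited transcript Rbp7.5 begins 98 bases upstream of the annotated start, at 149455076, and matches the annotated splicing. A transcript with its first exon at 149461786 to 149461976, 6998 bases upstream and listed as noncoding (Rbp7.8), made up all of the gene's TPM (transcript abundance per library, scaled by the authors) in 7 of 8 progenitor libraries. These had 3.59 and 7.09 TPM (R10 wild type), 10.5 (R10 OKMS), 5.19 (R10 OKS), 12.1 (R9 wild type), 4.15 (R9 OKMS) and 5.55 (R9 OKS). The eighth library, R9 wild type replicate 1, had none assigned. Outside progenitors Rbp7.8 appeared in 1 library, R9 OKMS serum at day 20, at 3.77 TPM.

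Rbp7.5 was in none of the 8 progenitor libraries, 12 of 20 reprogramming libraries in serum, 2 of 5 in 2i-LIF and 6 of 9 stem cell libraries. Its highest value was 32.5 TPM, in R10 OKMS serum at day 6. Another transcript, Rbp7.10, begins 11752 bases upstream at 149466730, between Rbp7 and the next protein-coding gene upstream, Nmnat1 (149467572 to 149485202, minus strand). It was in 8 of 9 stem cell libraries, with up to 5.73 TPM, 3 of 5 in 2i-LIF, 3 of 20 in serum and no progenitor library. Rbp7.9, beginning 10838 bases upstream, was in 5 libraries, with at most 7.96 TPM. The wild type day 2 libraries had none of the 4. In the authors' classification the starts of Rbp7.8, Rbp7.9 and Rbp7.10 lie outside any CAGE peak, a cluster of capped RNA ends. Each R10 stem cell or progenitor library held 3 to 22 Rbp7 reads. In the transcript usage test of R10 stem cells against progenitors (limma diffSplice, which called 62.1% of 8614 genes), only Rbp7.8 and Rbp7.10 passed the filter of 1 TPM in 4 libraries. Rbp7.8 passed through the progenitors alone and Rbp7.10 through the stem cells alone, and Rbp7.5 did not pass. The gene's call in that test therefore adds nothing to the presence and absence given above.

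**Figure D3:**
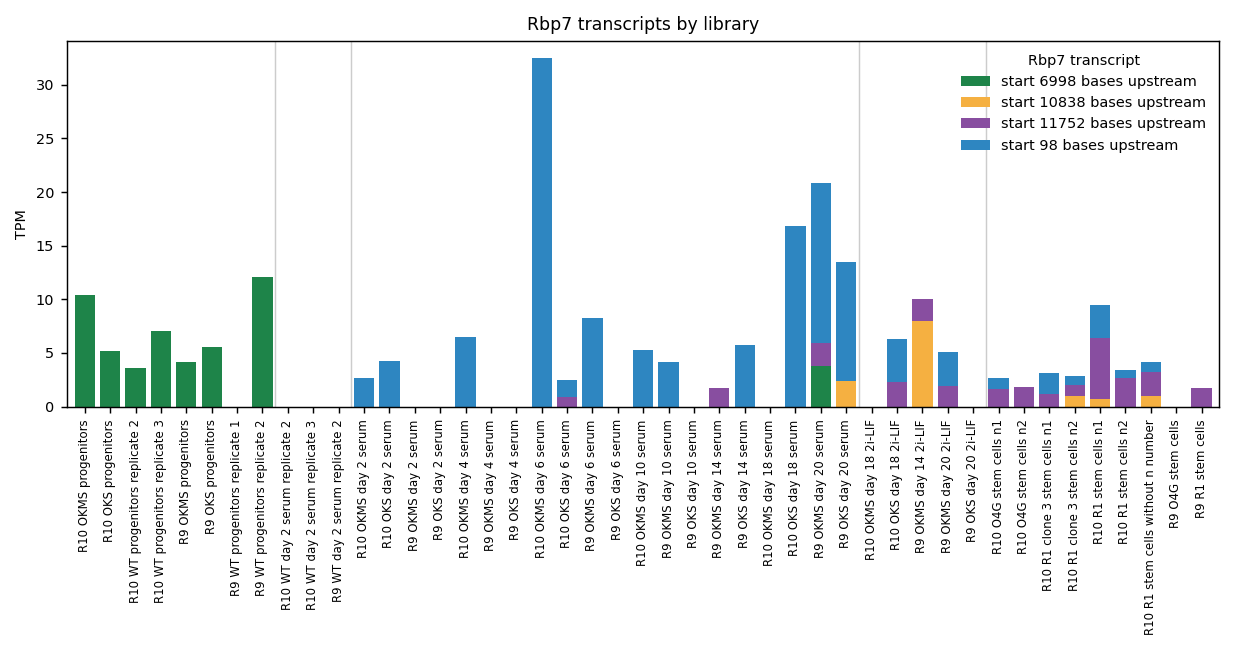
TPM of the Rbp7 transcripts in each library, stacked and coloured by their start. Progenitor bars hold only the start 6998 bases upstream, and the stem cell bars hold the start 98 bases upstream, the start 11752 bases upstream and, in 3 libraries, the start 10838 bases upstream.

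The bases just upstream of the deposited starts of Rbp7.5 and of the main Crabp1 transcript are shown, since Rbp7.5 was absent from progenitors, while the main Crabp1 transcript was present in every state. Both are 5′ to 3′ on the gene's strand, and capitals mark CpG.
Rbp7 chr4:149455077-149455218 (minus strand): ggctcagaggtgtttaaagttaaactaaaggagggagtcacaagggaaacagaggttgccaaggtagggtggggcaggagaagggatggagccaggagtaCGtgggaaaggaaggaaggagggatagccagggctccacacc
Crabp1 chr9:54764498-54764727 (plus strand): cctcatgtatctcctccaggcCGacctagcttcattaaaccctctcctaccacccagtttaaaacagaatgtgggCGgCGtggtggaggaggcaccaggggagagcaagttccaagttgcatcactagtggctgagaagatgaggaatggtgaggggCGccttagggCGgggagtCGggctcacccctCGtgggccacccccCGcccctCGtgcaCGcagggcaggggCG
The Rbp7 stretch of 142 bases holds 1 CpG and the Crabp1 stretch of 230 bases holds 11. In the RefSeq windows the 250 bases upstream held 3 CpG for Rbp7, 12 for Crabp1 and 16 for Rarb, with a median of 6 over all windows.

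Crabp1 (chromosome 9, 54764748 to 54773110, plus strand) had 98.1% of its TPM over all libraries in Crabp1.2. In R9 the minor transcript Crabp1.32 made up 36.9% of TPM in wild type progenitors replicate 1 and all of it in OKS progenitors, on 7 Crabp1 reads in the 4 progenitor libraries. It passed the filter through those 2 libraries alone. The gene's call for transcript usage in R9, where 10.9% of 9888 genes were called, therefore adds nothing to these shares. Crabp2 (chromosome 3, 87948666 to 87953376, plus strand) had 77.6% in Crabp2.580. Another 3 transcripts began 3486, 6646 and 7814 bases upstream, the one at 6646 outside any CAGE peak. These made up 4.90 to 100% of Crabp2 TPM in 13 of the 20 serum reprogramming libraries. The share was 50.4 to 100% in R9 OKS at days 2, 4, 6, 10 and 14, on only 4, 2, 2, 4 and 16 Crabp2 reads. The 3 transcripts were in 1 of 9 stem cell libraries and in none of the 5 in 2i-LIF.

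Rarg (chromosome 15, 102234938 to 102257517, minus strand) had 39.3% of its TPM in a transcript that begins 32876 bases upstream at 102290393. The first exon of that transcript is short (102290374 to 102290393), and its start lies outside any CAGE peak in the authors' classification. A second Rarg transcript held 27.7%, and the one that begins 93 bases upstream of the annotated start held 11.1%. Its usage was not called between R10 stem cells and progenitors (adjusted p = 0.144), but was with a pseudocount of 0.25 (0.0178) and without the unnumbered R1 library (0.0309). Rara (chromosome 11, 98927818 to 98974942, plus strand) was spread over 4 transcripts with 22.4, 18.8, 17.5 and 15.6%. Rarb (chromosome 14, 16430839 to 16819156, minus strand) was spread over 3 with 31.2, 24.0 and 15.6%. In R9 neither passed the usage test (adjusted p = 0.695 and 0.943).

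Around these genes, 67 further genes of the pathway were listed, of which 53 had a row. They were retinoid carriers, enzymes that make and break retinoic acid, partner receptors, co-factors and known target genes. In R10 stem cells 8 were higher and 17 lower than in progenitors, of 41 tested, where 22.4% of genes were higher and 23.5% lower. Lower were the homeobox gene Meis1 (-5.05), the nuclear receptor genes Nr2f1 (-4.81) and Nr2f2 (-3.16), the fatty acid and retinoic acid carrier Fabp5 (-4.25) and Hoxa2 (-3.50). The target gene Cdx1 was higher (4.11). Nr2f1 went from 30.1 to 43.2 CPM in R10 progenitors to at most 1.16 in stem cells, and Cdx1 from at most 0.287 to 9.28 to 46.5. Genes such as Cdx1 passed the filter only with the group where they are high, so these counts are descriptions. In R9, 4 were higher and 15 lower of 42 (17.6% and 18.4% of genes).

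In wild type cells moved to serum medium, 13 were higher and 2 lower, of 43 (14.9% and 11.9% of genes). Dhrs3, which reduces retinal back to retinol, went from 3.49 and 7.46 to 164 and 321 CPM (5.22). Tgm2, a transglutaminase and known target, went from 0.574 and 0.635 to 23.7 and 73.2 CPM (4.74), and Aldh1a1, which makes retinoic acid, from 0.635 and 2.58 to 41.5 and 56.8 (4.36). Rdh5 (3.45) and Rdh10 (3.13), which oxidise retinol, and the carrier Rbp2 (2.56) followed. Of the known target genes 8 of 17 were higher and none was lower, while Rarb, a target with the repeat shown above, was lower. Tgm2 and Aldh1a1 passed the filter only with the serum medium, where they are high, so these counts are descriptions. All 43 were tested with the same 4 libraries as the members.

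With factors at day 2, 0 of 44 pathway genes were called by limma (5 at an unadjusted p below 0.05, against 15.2% of all genes), and 0 by edgeR and by DESeq2. Over the R9 time course 3 had their largest difference above day 0 and 9 below, of 52 (5.50% and 5.24% of genes): Tgm2 (5.49) and Dhrs3 (4.11) above, Nr2f1 (-5.10), Hoxa3 (-4.00), Nr2f2 (-3.86) and Fabp5 (-3.66) below. Between cassettes, 0 were higher and 12 lower in OKMS than in OKS, of 40 (6.93% and 11% of genes). Among those with the largest differences were Dhrs3 (-2.14), Rdh10 (-1.83), Zfp703 (-1.80), Rarres1 (-1.80) and Fabp5 (-1.64).

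In 2i-LIF against serum, 2 were higher and 2 lower of 45 (5.95% and 6.32% of genes): Stra8 (2.64) and Meis2 (2.45) were higher, and the genes lower included Cyp26a1 (-2.71). Cyp26a1 had at most 1.08 CPM in 2i-LIF and 1.48 to 37.1 in the paired serum libraries. It passed the filter only with the serum libraries, where it is high, so these counts too are descriptions. Day 18 serum cells had 10 genes above and 4 below the stem cells, of 43 (11.1% and 12.8% of genes), among them Cdx1 (-3.37), Cyp26a1 (3.22), Dhrs3 (3.08) and Meis1 (2.54). Day 18 2i-LIF cells had 4 above and 0 below, of 39 (5.59% and 6.59% of genes): Stra8 (4.13), Rbp4 (2.41), Meis1 (1.70) and Rdh14 (1.23). Counts called by edgeR and DESeq2 were lower in both day 18 comparisons, at 9 and 9 of 43 for serum and at 1 and 2 of 39 for 2i-LIF, and over the time course they were 20 and 12 of 52.

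**Figure D4:**
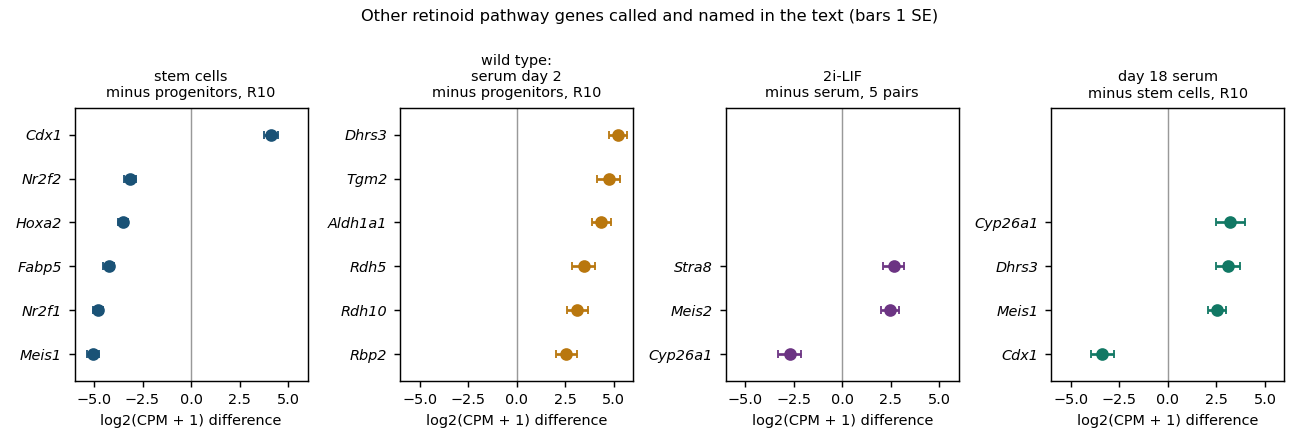
Differences of log2(CPM + 1) of the other pathway genes named among those called in 4 comparisons, with 1 standard error. Dhrs3, Tgm2 and Aldh1a1 lie above 4 in the medium comparison, and Meis1, Nr2f1 and Fabp5 lie below -4 between stem cells and progenitors.

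Each member was also matched by pattern, as the Pearson correlation of log2(CPM + 1) over the 45 libraries after each chemistry's mean was taken away, among 12758 genes. The libraries share batches and states, so these are descriptions. Rarb was most like Sec11c (0.934), Lmcd1 (0.921) and the neural transcription factor gene Olig2 (0.92). Crabp1 was most like Phyh (0.823), Tmsb15b2 (0.819) and Stac2 (0.819). Crabp2 was most like 2200002D01Rik (0.818), Perp (0.814) and Ly6a (0.785), and Rarg like an antisense gene at Irak3 (0.786), Kdm4c (0.786) and Eras (0.777). The closest genes to Rbp7 were Psmd14 (0.757), Cfdp1 (0.746) and Psma6 (0.734), and to Rara they were Ankrd24 (0.673), H2az2 (0.652) and Pgk1 (0.618).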

How the data were processed

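The authors deposited gene values in CPM (gene reads scaled to library size) and transcript values in TPM (scaled also to transcript length), per the file headers, with transcript models and their classification, whose positions, lengths and distances are in bases in the authors' files. Minimap2 2.24-r1122 and build mm10 are named in the submitters' processing notes. How reads shared by related or overlapping genes were assigned, and whether strand was used, is not given in the sources used here. CPM values returned whole reads in 100% of cases (tolerance 0.02). Of the gene columns, 13 matched no sample and were not used, and 20 gene names had been turned into numbers.

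CPM was analysed as log2(CPM + 1) with limma 3.58.1 (R 4.3.3; moderated tests with a trend). A gene was kept if the number of libraries with 1 CPM or more reached the size of the smaller arm, Benjamini-Hochberg adjustment ran over all genes tested, and a call needed adjusted p below 0.05 and an absolute difference of 1. Transcripts (at least 1 TPM in 4 R10 or 2 R9 libraries) were tested with diffSplice. Alternatives were count models on the recovered reads (edgeR 4.0.16, DESeq2 1.42.0), other pseudocounts, filters and scalings, and leaving out each library. The code was tested on simulated data. Limits for a count of 0 use 3 reads and cover counting error only. All members are named in every comparison that tested them. Of the pathway lists, called genes are named among the 6 largest differences, and some are not reported here by name. The 3 most similar genes are named per member, and transcripts with at least 10% of a gene's TPM. The members and lists were chosen with earlier results of these data known. Promoter windows are from RefSeq (GRCm38.p6), and 6 of the 7 members, all but Crabp2, matched.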

Additional observations from a re-analysis of the deposited data

Results flagged for a closer look

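In 17 combinations of gene and group of 4 or 7 libraries, 3 held a library set far from the others by its gap to the next value. For continuous values chance gives about 1 in 20, which does not hold for values of a few reads. Crabp1 was at 5.35 CPM (4 reads) in R9 wild type progenitors replicate 1, the highest of 4. Crabp2 was at 1.69 CPM (1 read) in R9 OKS progenitors, with the other 3 at 0, where any read would stand apart. Rbp7 was at 5.71 CPM (22 reads) in the R10 R1 stem cell library n1, the highest of 7. Their causes were not tested.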

How the results depend on the processing

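Of 793 values of single genes under alternatives, 675 kept their direction and their side of the threshold, 55 lost the call, 22 gained one and 41 changed sign, none of the last with a call. The wild type libraries of both media share replicate numbers 2 and 3 (correlation of deviations 0.474, on 2 pairs, and no label that says a number marks one culture). With the replicate block the same 3 members were called in the medium comparison, with 5605 genes against 3940.

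Members called changed as follows, and the cause was not tested. Medium: 0 instead of 3 with R9 libraries, where 1 arm is a single library assumed to vary like the others and the count says nothing of stability, and 2 with no filter, a minimum of 5 CPM or DESeq2. Endpoints: 3 instead of 4 in R10 with a minimum of 5 CPM, and 2 instead of 3 in R9 with a minimum of 5 CPM or DESeq2. Factors: 1 instead of 0 with median centring, edgeR or DESeq2. Time course, instead of 2: 1 with a pseudocount of 0.25, quantile normalization or serum days against day 2, 4 with a minimum of 5 CPM, edgeR or DESeq2, 5 with median centring, and 0 in R10. 2i-LIF against serum, instead of 2: 1 with quantile normalization, median centring or no block, and 0 with R10 pairs. 2i-LIF day 18 against stem cells, instead of 2: 1 with a minimum of 5 CPM, edgeR, DESeq2 or all 7 stem cell libraries, and 0 with O4G alone. Serum day 18 against stem cells, instead of 1: 0 with a minimum of 5 CPM or O4G alone, and 2 with DESeq2. Chemistry: 1 instead of 0 with median centring. Transcript usage in R10, instead of 1: 2 with a pseudocount of 0.25, and 0 with 5 TPM or, in an arm of 1 library that says nothing of stability, the unnumbered R1 library alone; in R9, 0 instead of 1 with a pseudocount of 0.25. Leaving out 1 library, day or pair gave 4 to 4 members for R10 endpoints, 2 to 3 for R9, 0 to 0 for medium (no gene called in 3 of the 4 fits), 0 to 0 for factors, 1 to 3 for time, 0 to 1 for cassettes, 0 to 2 for 2i-LIF against serum, 1 to 2 and 1 to 2 for day 18 in 2i-LIF and serum, and 0 to 2 and 0 to 1 for R10 and R9 usage.

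Counts over all genes ranged more than 1.5 times: medium 3940 to 0, factors 114 to between 0 and 446, time 2078 to between 371 and 4573, cassettes 2567 to 0, 2i-LIF against serum 1832 to 188, day 18 in 2i-LIF 1896 to 57, in serum 3824 to 41, chemistry 482 to 311, and usage 5351 to 424 and 1076 to 77.

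Signs changed only where no call was made. R10 endpoints, Rara: 0.12 (quantile), 0.15 (centring). Rbp7: 0.04 (centring). Medium, Rarg: -0.08 (quantile), -0.04 (centring). Factors, R9 libraries: Rarb -0.51, Rarg 0.02. Time course: Rara 1.47 (R10), and against day 2 Crabp1 -1.72, Rara 0.99, Rbp7 2.84. Cassettes, Rara: 0.05 (quantile), 0.03 (centring). R10 libraries: Crabp2 -1.15, Rarg -0.20, Rbp7 -0.20. 2i-LIF against serum, Rbp7: -0.35 (edgeR), -0.17 (DESeq2), -0.43 (R9 pairs). Serum day 18, Rbp7: 0.35 (edgeR), 0.43 (DESeq2), 0.13 (O4G).

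The values of these genes without 1 library, day or pair ranged from -0.27 to 0.14 (Rara) and -0.42 to 0.07 (Rbp7) for R10 endpoints, -0.18 to 0.11 (Rarg) for R9 endpoints, -0.29 to 0.12 (Rara) and -0.18 to 0.40 (Rarg) for medium, -1.59 to 0.85 (Crabp1) and -0.37 to 0.21 (Rarg) for factors, -0.42 to 0.08 (Rara) for cassettes, -0.53 to 0.31 (Rbp7) for 2i-LIF against serum and -1.69 to 1.19 (Rbp7) for serum day 18.

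Depth limits Rbp7, Crabp2 and Rarb most, since many of their values rest on under 10 reads.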
